A study of Mus musculus with 2 samples.

Results

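Genes of the GDNF and endothelin-3 signals that guide the nerve cells of the gut were examined in whole stomachs of mouse embryos at embryonic day 15.5. The set comprised 10 of the 43346 genes in the tables, chosen by name: the ligands Gdnf, Nrtn and Artn, the co-receptors Gfra1, Gfra2 and Gfra3, the receptor Ret, and the endothelin genes Edn3, Ednrb and Ece1. The samples were 2 pools of stomach tissue from healthy B6NCrl embryos of both sexes at day 15.5, with no genetic change or treatment named in the labels. Replicate 1 pooled 78 embryos and replicate 2 pooled 62, and the labels call them biological replicates. The series has no other group, so the data give levels in this organ at this stage and the difference between 2 pools, not an effect of a condition. The organ was not sorted into cell types, and fewer cells of a type cannot be told apart from less RNA per cell.

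GDNF, neurturin and artemin are secreted factors that each prefer one of the GPI-anchored co-receptors GFRα1, GFRα2 and GFRα3, and the ligand bound to its co-receptor activates the receptor tyrosine kinase RET. In the gut, mesenchyme makes GDNF, and neural crest cells that carry RET and GFRα1 migrate towards it, divide and survive on it. Endothelin-3 is made as a precursor, cut to its active peptide by endothelin-converting enzyme 1 (Ece1), and bound by the G protein-coupled receptor EDNRB on the same crest cells, where it keeps them undifferentiated and migrating. Loss-of-function variants in the human genes of both signals are found in Hirschsprung disease, in which the end of the bowel lacks nerve cells.

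Depth was alike, at 44038879 (replicate 1) and 45625704 (replicate 2) expected counts, most of them on genes (43209506 and 44257493). Levels are given in TPM, a unit of relative abundance that is corrected for transcript length and can therefore be set side by side between genes. All 10 genes reached 1 TPM in both libraries, as did 15558 of the 43346 genes (35.9%). Of the mesenchyme markers, Barx1, a regulator that is known for stomach mesenchyme, stood at 142 and 166 TPM and Tcf21 at 174 and 179 TPM. Genes of neighbouring organs were present too: 6 of 6 pancreas markers summed to 3987 and 5090 TPM and 6 of 6 liver markers to 1458 and 818 TPM. A level in these pools therefore does not show which organ's cells carried the RNA.

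Among the ligands, neurturin RNA was the highest and Gdnf RNA the lowest. Gdnf (ENSMUSG00000022144, mm10 chr15:7810846-7837575, plus strand), the main attractant of enteric crest cells, had 163 expected counts and 1.55 TPM in replicate 1, and 244 counts and 2.31 TPM in replicate 2. Only 7.55% of the detected genes had a lower mean level than Gdnf. Its mean was 1.93 ± 0.537 TPM (SD, n = 2), which makes Gdnf the lowest of the 10 genes in each library.

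Nrtn (ENSMUSG00000039481, chr17:56751325-56757530, minus strand), which encodes neurturin, a factor that supports the processes of enteric neurons, had 312 counts and 10.9 TPM in replicate 1 and 344 counts and 12.01 TPM in replicate 2. The libraries lay close, with a mean of 11.5 ± 0.757 TPM (SD, n = 2). The log2 ratio of Gdnf to Nrtn on the TPM scale was -2.82 in replicate 1 and -2.38 in replicate 2, a mean of -2.60 ± 0.31 (SD, n = 2). Both libraries thus held less Gdnf than Nrtn RNA per unit length. Without the length correction the mean log2 ratio was -0.72, because the single Nrtn transcript spans 1023 bases and the single Gdnf transcript 3509.

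Artn (ENSMUSG00000028539, chr4:117926162-117929763, minus strand), which encodes artemin, a guidance factor for sympathetic axons, had 239 counts and 5.66 TPM in replicate 1 and 254 counts and 5.72 TPM in replicate 2. Its libraries were the closest of the 10 genes, with a mean of 5.69 ± 0.0424 TPM (SD, n = 2). Transcripts with a complete coding sequence carried 72.8% and 72.7% of that level, and the rest lay on a pair of short non-coding transcripts with fewer than 10 counts each. The complete transcripts Artn-201 and Artn-202 encode the same protein of 224 residues.

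Gfra1 stood far above Gfra2 and Gfra3, the other co-receptors of this set. Gfra1 (ENSMUSG00000025089, chr19:58235604-58455909, minus strand), the partner of GDNF, had 2928 counts and 26.6 TPM in replicate 1 and 3728 counts and 32.5 TPM in replicate 2. Its mean of 29.6 ± 4.16 TPM (SD, n = 2) was above that of 67.0% of the detected genes. Replicate 2 was the higher library, and the ranges that the authors give for each estimate, 25.1 to 28.5 TPM and 31.0 to 35.0 TPM, did not overlap. An antisense gene, Gm16277, overlaps Gfra1 over 444 bases and had 90.8 and 99.5 counts, and since the strand setting is not known its reads cannot be told apart from those of Gfra1 there.

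Gfra2 (ENSMUSG00000022103, chr14:70890120-70979838, plus strand), the partner of neurturin, had 275 counts and 2.65 TPM in replicate 1 and 373 counts and 3.58 TPM in replicate 2. Gfra3 (ENSMUSG00000024366, chr18:34689898-34720387, minus strand), the partner of artemin, had 215 counts and 3.68 TPM in replicate 1 and 172 counts and 2.93 TPM in replicate 2. The libraries of these co-receptors overlapped, with Gfra3 higher in replicate 1 and Gfra2 higher in replicate 2. Their means were 3.12 ± 0.658 and 3.31 ± 0.530 TPM (SD, n = 2).

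Ligands and their preferred co-receptors were ordered differently. Gfra1 was 10.0-fold and 9.08-fold higher than Gfra2 in replicates 1 and 2, a mean log2 ratio of 3.26 ± 0.10 (SD, n = 2), whereas the ligand of Gfra2 was the higher of the ligands. Gfra1 exceeded its ligand Gdnf 17.2-fold and 14.1-fold in the same libraries. Gfra2 and Gfra3 instead lay below theirs, with mean log2 ratios of -1.90 ± 0.21 for Gfra2 to Nrtn and -0.79 ± 0.24 for Gfra3 to Artn (SD, n = 2). Of these, Gfra2 to Nrtn depended on the length correction, since it was -0.03 without it. These ratios compare RNA levels in the whole organ, and say nothing of the amounts of protein at a cell.

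Gfra1 RNA contained 2 protein forms in unequal shares. The forms differ by a coding exon of 15 bases, 5 residues long, which the form of 468 residues (GFRα1a) includes and the form of 463 residues (GFRα1b) skips. The exon, number 5 of Gfra1-201 at mm10 chr19:58392573-58392587, is printed in capitals between 30 bases on each side, and the junction without it stands under it. The sequences are from the GENCODE M21 transcripts, on the minus strand, in the 5′ to 3′ direction of the RNA.
Gfra1-201: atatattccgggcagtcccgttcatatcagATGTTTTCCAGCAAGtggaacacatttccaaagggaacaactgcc
Gfra1-203: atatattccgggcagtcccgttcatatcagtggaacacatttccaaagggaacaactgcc
Gfra1-203, the transcript without these 15 bases, was at 13.0 and 17.3 TPM in replicates 1 and 2. The 3 complete transcripts with the exon, Gfra1-201, Gfra1-208 and Gfra1-209, summed to 9.59 and 9.83 TPM. The form of 463 residues therefore made up 57.6% and 63.7% of the complete coding transcripts, a mean of 60.7% ± 4.32 (SD, n = 2), and was the larger form in both libraries. The authors' estimate divides reads among transcripts that are alike over most of their length, and the ranges they give for Gfra1-208 (0.00360 to 3.23 TPM in replicate 1) show how loosely single transcripts are fixed. Short partial transcripts made up the remainder of the gene, the highest of them Gfra1-204 with 11.8% and 12.7% of its TPM.

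Ret RNA was present at a moderate level, and most of it was assigned to the transcript of the short form. Ret (ENSMUSG00000030110, chr6:118151745-118197718, minus strand), the signalling receptor for all GFRα co-receptors of this set, had 1860 counts and 8.71 TPM in replicate 1 and 2419 counts and 11.3 TPM in replicate 2. Its mean was 10.0 ± 1.84 TPM (SD, n = 2), above 39.1% of the detected genes. As for Gfra1, replicate 2 was higher, and the authors' ranges of 8.17 to 8.97 and 10.6 to 11.6 TPM did not overlap. Gfra1 exceeded Ret 3.06-fold and 2.87-fold, a mean log2 ratio of 1.57 ± 0.06 (SD, n = 2), so that this ratio differed less between the pools than either gene did. Without the length correction it was 0.64, and the length assumed for Ret bears on it: the main transcript, Ret-202, was 7341 bases long in the authors' annotation and is 4497 bases long in M21.

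RET9 and RET51 are the known protein forms of RET, named for the number of residues that follow the end of their shared sequence. The form is set at the end of the transcript: Ret-202 reads through the donor site of exon 19 and stops after 9 more residues, giving 1073 in all, while Ret-201 splices to exon 20 and adds 51 residues, giving 1115. The ends of both coding sequences are shown because they set the protein form. The isoform estimate rests on the whole transcripts, untranslated parts included. Only coding bases were compared, and whether the untranslated end of the other transcript also covers them was not tested. The last 30 coding bases that the forms share (mm10 chr6:118155288-118155317) are in lower case. The bases that code in one form alone, the stop codon included, are in capitals. They lie at chr6:118153853-118154010 for Ret-201 and chr6:118155256-118155287 for Ret-202, minus strand, and are taken from the GENCODE M21 transcripts.
Ret-201: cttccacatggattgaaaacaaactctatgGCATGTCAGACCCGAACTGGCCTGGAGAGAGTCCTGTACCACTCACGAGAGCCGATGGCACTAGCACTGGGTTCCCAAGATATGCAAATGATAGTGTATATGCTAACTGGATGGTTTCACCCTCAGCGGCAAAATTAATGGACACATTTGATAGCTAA
Ret-202: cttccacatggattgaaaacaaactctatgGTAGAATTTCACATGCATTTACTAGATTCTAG
The short form, Ret-202, stood at 6.49 and 8.27 TPM in replicates 1 and 2, and the long form, Ret-201, at 2.22 and 3.03 TPM. The short form thus took 74.5% of Ret in replicate 1 and 73.2% in replicate 2, a mean of 73.9% ± 0.969 (SD, n = 2). The split did not differ detectably between the libraries by a two-sided Fisher exact test on the estimated counts, with 1452 and 408 in replicate 1 against 1858 and 561 in replicate 2 (odds ratio 1.07, p = 0.338). The share rests on the same transcript lengths, which for Ret-201 were 6064 bases in the authors' annotation and 5456 in M21. By counts instead of TPM the short form held 78.0% and 76.8%. Because Ret-202 reads through a donor site, reads of unspliced Ret in these total RNA libraries could count towards it. Their part in the share was not tested.

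**Figure D1:**
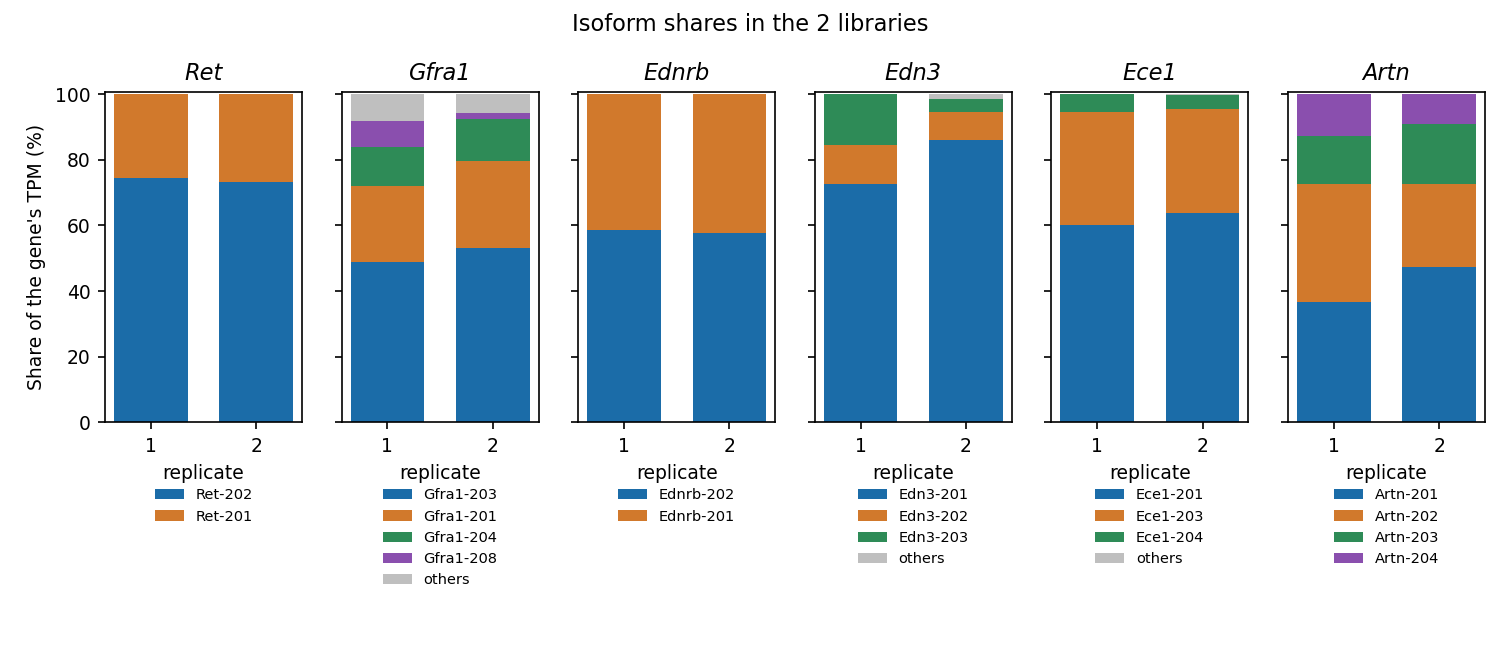
Share of each gene's TPM on its transcripts (percent, vertical axis) in replicates 1 and 2, one panel for each of the 6 genes of the set with several transcripts. Ret-202 took 74.5% and 73.2% of Ret, and the largest shift between libraries was that of Edn3-201, from 72.5% to 86.1%.

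The endothelin genes were led by the receptor. Edn3 (ENSMUSG00000027524, chr2:174760619-174784042, plus strand), the ligand gene, had 1062 counts and 13.9 TPM in replicate 1 and 1115 counts and 12.9 TPM in replicate 2. Counts were slightly higher in replicate 2 and TPM slightly lower, as the transcripts assigned to the gene differed in length between libraries. The mean was 13.4 ± 0.665 TPM (SD, n = 2), above 46.2% of the detected genes.

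Edn3 was also the most abundant of the 3 endothelin ligand genes. Edn1, best known from blood vessel walls, had 2.87 and 2.69 TPM, and Edn2 had 3.09 and 3.0 TPM, so that neither overlapped Edn3 in these libraries. EDNRB binds all 3 peptides, and the other receptor, EDNRA, binds endothelin-3 weakly. The coding sequences of the mature peptides (63 bases, 21 residues, all in exon 2 of the first transcript, plus strand) are set side by side to show where the ligands differ. They lie at mm10 chr13:42303649-42303711 (Edn1), chr4:120161951-120162013 (Edn2) and chr2:174761749-174761811 (Edn3), and come from the GENCODE M21 transcripts. Capitals mark codons for another residue than in Edn3, and, in Edn3, for another residue than in Edn1.
Edn1: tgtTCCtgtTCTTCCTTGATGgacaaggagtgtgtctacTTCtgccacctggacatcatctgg
Edn2: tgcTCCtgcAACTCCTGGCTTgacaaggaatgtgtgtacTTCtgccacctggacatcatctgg
Edn3: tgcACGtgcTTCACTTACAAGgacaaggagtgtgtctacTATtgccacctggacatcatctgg
The Edn3 peptide shares 15 of 21 residues with each of the others, which share 18 of 21 between them. The differing codons lie in the first part of the peptide, apart from one after the middle, and the end of the peptide is the same in all 3. At the base level Edn3 matched Edn1 at 50 of 63 positions and Edn2 at 48.

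Edn3-201, which encodes the full precursor of 214 residues, carried 72.5% of the gene's TPM in replicate 1 and 86.1% in replicate 2. Edn3-203, a shorter form of 166 residues that also contains the mature peptide, carried 15.6% and 3.83%. The shorter form rested on only 42.3 and 9.70 estimated counts, and the authors' ranges for it, 0.922 to 3.60 TPM and 0.000314 to 2.30 TPM, overlapped. The ranges for Edn3-201, 8.98 to 10.6 TPM and 9.96 to 11.6 TPM, overlapped too.

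Ednrb (ENSMUSG00000022122, chr14:103814625-103844402, minus strand), the receptor, was the highest of the 10 genes, with 9033 counts and 76.1 TPM in replicate 1 and 9791 counts and 82.2 TPM in replicate 2. Its mean of 79.1 ± 4.28 TPM (SD, n = 2) was above that of 86.6% of the detected genes. The receptor exceeded its ligand Edn3 by 5.49-fold and 6.35-fold, a mean log2 ratio of 2.56 ± 0.15 (SD, n = 2). It exceeded Ret by 8.74-fold and 7.26-fold, and both receptors mark enteric crest cells. That mean log2 ratio was 2.99 ± 0.19 (SD, n = 2) with the length correction and 2.15 without it, and the Ret level rests on the transcript lengths named above. Beside crest cells, Ednrb is known from blood vessel and mesenchymal cells, and its source within the organ was not tested. Transcripts Ednrb-202 (58.6% and 57.8%) and Ednrb-201 (41.4% and 42.2%) encode the same protein of 442 residues and differ outside the coding sequence.

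Ece1 (ENSMUSG00000057530, chr4:137862237-137965229, plus strand), the converting enzyme, had 3808 counts and 42.6 TPM in replicate 1 and 4133 counts and 43.5 TPM in replicate 2. Its mean was 43.0 ± 0.679 TPM (SD, n = 2), the highest of the set after Ednrb. A large part of that level came from a partial transcript of 172 bases, Ece1-203, which had only 33 and 31 counts but 14.6 and 13.7 TPM, or 34.4% and 31.5% of the gene, because so few counts are divided by so short a length. Counting Ece1-201 alone, which encodes the enzyme of 753 residues, the level was 25.6 and 27.8 TPM. Ece1 also overlaps an antisense gene, Gm13012, over 1568 bases, with 6 and 9 counts.

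The order of the mean levels was Ednrb, Ece1, Gfra1, Edn3, Nrtn, Ret, Artn, Gfra3, Gfra2 and Gdnf. Of the 9 pairs of neighbours in this order, 7 had libraries that did not overlap, and Nrtn with Ret and Gfra3 with Gfra2 did overlap. This compares the TPM values alone, in an order taken from the same values. The authors' ranges also overlapped for Edn3 and Nrtn in replicate 2 (11.9 to 14.6 and 10.6 to 13.1 TPM). They did so too for Gfra2 in replicate 1 (2.31 to 2.93 TPM) and Gdnf in replicate 2 (2.00 to 2.57 TPM). When only transcripts with a complete coding sequence were counted, a choice made after seeing the data, 5 of 9 pairs stood apart. Ece1 (25.6 and 27.8 TPM) then overlapped Gfra1 (22.6 and 27.1 TPM), and Edn3 (12.2 and 11.6 TPM) overlapped Nrtn (10.9 and 12.01 TPM). Without the length correction 7 of 9 pairs stood apart in another order, in which Ret came before Edn3 and Nrtn, Gfra2 before Artn, and Gfra3 last, overlapping Gdnf.

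**Figure D2:**
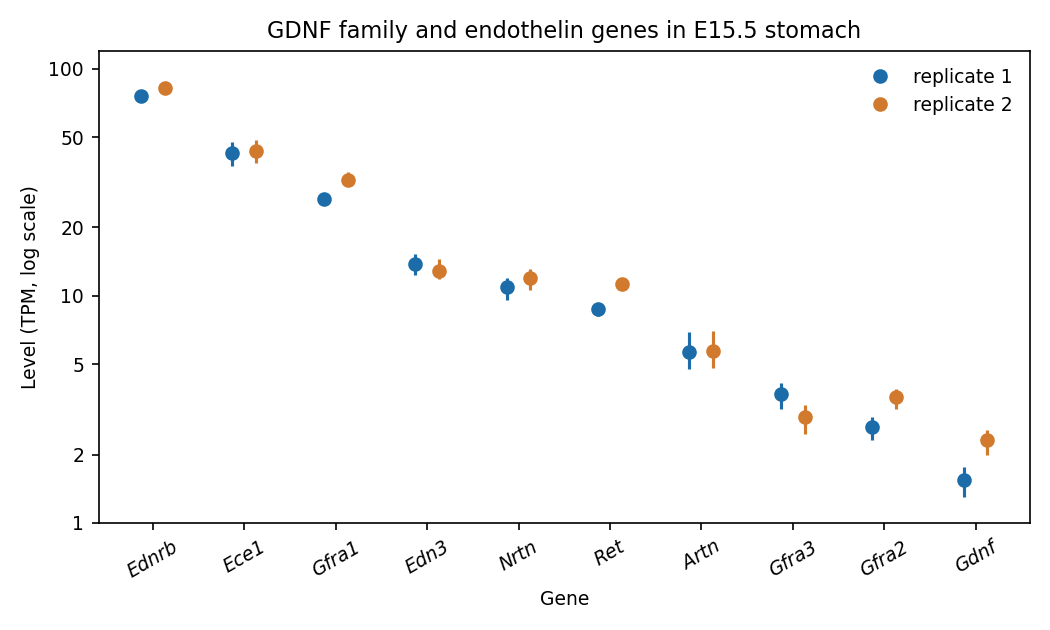
Level of each of the 10 genes in TPM (vertical axis, log scale) in replicate 1 and replicate 2, with bars for the range that the authors give for each estimate, whose level is not stated. Ednrb lies highest at 76.1 and 82.2 TPM and Gdnf lowest at 1.55 and 2.31 TPM.

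The other genes of the GDNF family were unevenly present. Of 6 genes, 3 were detected at 1 TPM in both libraries: Ncam1 (61.2 and 64.2 TPM) and Sdc3 (20.0 and 21.5 TPM), which encode surface proteins that bind GDNF without RET, and Gfra4 (10.4 and 11.4 TPM), the co-receptor of persephin. Persephin itself, Pspn, had only 3 and 4 counts, or 0.26 and 0.34 TPM. Gfral, the receptor partner for GDF15, had 0 counts in both libraries, which allows up to 3 counts, or 0.0694 and 0.0678 CPM (counts scaled to the library total), for counting error only. The co-receptor Gfra4 was thus detected while its ligand was not. On the TPM scale Gfra4 stood above Gfra2 and Gfra3 and below Gfra1 (26.6 and 32.5 TPM) in both libraries.

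RNAs for proteins that pass on or limit the RET signal were detected for 17 of 18 genes. Grb10, an adaptor that binds activated receptor kinases, was the highest at 276 and 323 TPM, followed by the adaptor Shc1 at 69.4 and 83.5 TPM. The exception was Dok6, an adaptor of the nervous system, at 0.31 and 0.30 TPM. These proteins serve many receptors, so their level does not measure RET activity.

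The remaining endothelin genes were all detected, 6 of 6. Ece2, a further converting enzyme, had 28.1 TPM in each library, and Ednra had 17.7 and 22.7 TPM, below Ednrb in both. Kel, the Kell blood group gene of red cells, whose protein can cut the endothelin-3 precursor, had 829 counts and 17.9 TPM in replicate 1 and 333 counts and 7.72 TPM in replicate 2. Kel was the gene of this list called lower in replicate 2, with a log2 ratio of -1.36 (exact binomial test, Benjamini-Hochberg adjusted p = 1.21e-50) and, by edgeR's exact test with an estimated dispersion, an adjusted p of 0.0417. The 5 erythroid markers, led by Hbb-bs and Alas2, summed to 8760 and 5187 TPM, and all 5 were lower in replicate 2. The dispersion in edgeR's test was estimated from the same libraries, so that test gives no separate support for the Kel difference. The part of red cells in it was not tested.

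Transcription factors of enteric crest cells were detected in 6 of 7 cases. Zeb2 (40.4 and 40.9 TPM) and Hand2 (8.07 and 8.37 TPM), both needed for the enteric nervous system, were the highest. Pax3, which is active early in crest cells, had 5 and 4 counts and 0.04 and 0.03 TPM. Of 8 further genes linked to Hirschsprung disease, all 8 were detected, led by the guidance factor Sema3c (44.2 and 53.9 TPM) and the receptor Erbb2 (33.3 and 34.5 TPM).

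**Figure D3:**
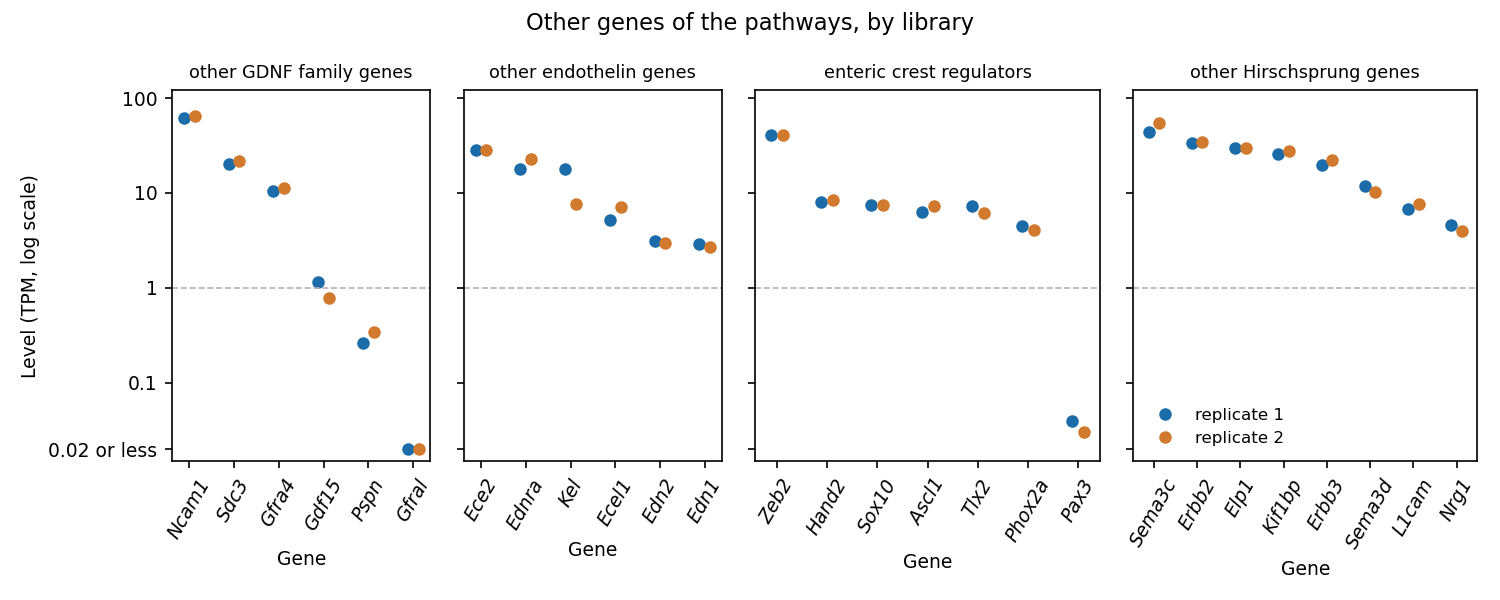
Levels in TPM (vertical axis, log scale, values of 0.02 or less drawn at the bottom) of the other genes of the GDNF family, the endothelin system, the crest regulators and the Hirschsprung genes in replicates 1 and 2, with a dashed line at 1 TPM. Kel shows the widest gap between libraries, 17.9 against 7.72 TPM, and Pspn, Gfral and Pax3 lie under the line in both libraries.

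The same pools held markers of the cells that carry or surround these signals. All 9 enteric neuron markers were detected, with sums of 248 and 243 TPM and with Uchl1 (60.6 and 62.5 TPM) and Stmn2 (58.8 and 53.4 TPM) the highest. Of 8 markers of glia and Schwann cell precursors, 7 were detected, with Fabp7 (54.5 and 49.7 TPM) and Sox10 (7.40 and 7.41 TPM) the highest and Gfap, a marker of mature glia, under 1 TPM at 0.97 and 0.57. All 6 smooth muscle markers (led by Acta2 and Actg2), all 6 mesenchyme markers (Col3a1 and Col1a1) and all 6 endothelial markers (Egfl7 and Pecam1) were detected, with sums of 3381 and 3418, 3580 and 3652, and 202 and 217 TPM.

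Several of the 10 genes are also active in other organs of the embryo, so markers of those organs were read beside them. Of 8 genes of the kidney and ureteric bud, where GDNF and RET drive branching, 5 were under 1 TPM in both libraries: Pax2 (2 and 8 counts), Wnt9b (2 and 3 counts), Umod (0 counts), Lhx1 and Calb1. The highest were Cited1 (10.3 and 8.19 TPM) and Six2 (5.64 and 11.3 TPM), which other embryonic tissues also express, and the list summed to 21.7 and 23.7 TPM. Of 6 genes of melanoblasts, which also use EDNRB, 4 were under 1 TPM (Dct, Mlana, Tyr and Tyrp1, the last at 0 counts in both libraries), and the highest, Mitf (1.63 and 1.36 TPM) and Pmel (1.05 and 1.37 TPM), stood just above that level. The authors' range for Mitf is wide, 1.52 to 49.4 TPM in replicate 1 and 1.24 to 49.3 TPM in replicate 2, and the list summed to 3.61 and 3.79 TPM. Of 6 genes of sympathetic and adrenal cells, 5 were detected and Pnmt was not (6 and 0 counts). Only some of these cells also carry RET and GFRα3. The list, led by Chgb and Cyp11a1 on the TPM scale, summed to 32.2 and 31.8 TPM. Most of that sum was Chgb (18.4 and 22.9 TPM), and every other gene of the list had a lower TPM in replicate 2. The source of the Chgb RNA was not tested. Dbh, an enzyme of noradrenaline synthesis, was called lower in replicate 2 by the exact binomial test on counts (146 against 36 counts, log2 ratio -2.05). In TPM the gap was smaller, 2.51 against 1.06, and the authors' ranges, 1.88 to 3.87 and 0.520 to 2.38 TPM, overlapped.

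Differences between the libraries stayed under 2-fold for all 10 genes, with a median absolute log2 ratio of 0.20, against 0.15 for all genes tested. Counts of each gene were set against each other in an exact binomial test, two-sided, with library sizes from trimmed means (TMM), adjustment by Benjamini-Hochberg over 20918 genes, and a call at an adjusted p under 0.05 together with a 2-fold difference. The test sets 1 library against another and covers counting error only, not the spread between pools. edgeR's exact test, given below, takes its spread from the same libraries, so that spread is made of the differences under test. Its counts therefore add no result about the 10 genes. Of the 20918 genes, 1353 (6.47%) were called different, 164 higher and 1189 lower in replicate 2, and none of the 10 genes was among them, a count too near to that share to be a result about these genes. At an unadjusted p under 0.05 with no limit on size, the binomial test found 7 of the 10 genes, and 8238 (39.4%) of all genes. edgeR's exact test, which adds a spread between pools (a coefficient of variation of 19.7%, estimated from the same libraries), called 687 of all genes (3.28%) and 0 of the 10, each with an adjusted p of 1.00. At an unadjusted p under 0.05 it found 0 of the 10 and 1442 (6.89%) of all genes.

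By the adjusted p alone, with no limit on size, 5 of the 10 genes were higher in replicate 2, where 15.1% of all genes were, and 1 of the 10 was lower, where 16.4% of all genes were. These shares are not a like comparison, since higher counts let smaller differences pass. All genes tested include those with a summed count as low as 10, while each of the 10 genes had at least 163 counts in a library. The median log2 ratio of the 10 genes was 0.09 and that of all genes tested 0.00. Gdnf differed the most, with a log2 ratio of 0.54 and a 95% interval of 0.25 to 0.83 (exact binomial test, adjusted p = 0.00127). Gfra2 had a ratio of 0.40 (0.17 to 0.63), Ret of 0.34 (0.25 to 0.42), Gfra1 of 0.31 (0.24 to 0.38) and Ednrb of 0.07 (0.03 to 0.12). Gfra3 was the gene lower in replicate 2, at -0.36 (-0.66 to -0.07, exact binomial test, adjusted p = 0.0489).

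For the other 4 genes the test found no difference past the threshold. Nrtn had a log2 ratio of 0.10 (-0.13 to 0.32), Ece1 of 0.08 (0.01 to 0.14), Artn of 0.05 (-0.21 to 0.31) and Edn3 of 0.03 (-0.09 to 0.15). The intervals leave room for a difference of up to about the size seen for Gfra1 in Nrtn and Artn, and for less in Ece1 and Edn3. All these directions are relative to the other genes: with library sizes from the spike-in RNAs, which made up 1.88% and 3.0% of the counts, every ratio is 0.68 lower on the log2 scale, and all 10 genes were lower in replicate 2.

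Markers of nerve cells gave ratios nearer to 0 or under it. The crest regulators had a median log2 ratio of -0.04 and summed to 73.9 and 74.3 TPM, with 0 of the 6 tested past the adjusted p in either direction. The enteric neuron markers had a median of -0.13, with 0 of 9 higher and 4 lower by the adjusted p alone, and the glia and Schwann markers a median of -0.05, with 0 of 8 higher and 2 lower. Sox10, which like Ret marks crest cells, had a ratio of -0.03. Mesenchyme markers had a median of 0.04 (4 of 6 higher, 1 lower), smooth muscle markers -0.03 (1 higher, 2 lower) and endothelial markers 0.08 (2 higher, 0 lower). Among the pathway lists the median was 0.09 for the RET adaptors and effectors (5 of 18 higher, 1 lower), 0.06 for the other GDNF family genes (0 of the 4 tested in either direction), -0.04 for the other endothelin genes (2 of 6 higher, 1 lower) and 0.06 for the further Hirschsprung genes (3 of 8 higher, 1 lower).

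Markers of neighbouring organs, red cells and the stomach's own squamous lining differed as well. All 6 pancreas markers, led by Ctrb1 and Cpa1, were higher in replicate 2 by the adjusted p alone, with a median log2 ratio of 0.35. The median was -1.37 for the liver markers, led by Apoa1 and Afp, of which Alb, Afp, Ahsg and Serpina1a were called lower, -1.15 for the erythroid markers, of which Klf1, Slc4a1 and Epb42 were, and -0.73 for the markers of the squamous forestomach, led by Krt15 and Krt4, of which Krt4 and Krt13 were. The forestomach markers, all 6 detected, summed to 2533 and 1396 TPM. The 6 genes listed as mesothelium markers had a median of -0.23. The highest were Krt19 (734 and 651 TPM), whose source in these pools was not tested, and Upk3b (45.6 and 37.2 TPM). The kidney, sympathetic and melanoblast lists had medians of -0.02, -0.44 and 0.03. The part of such cells in the differences of Ret, Gfra1, Gfra2, Gfra3 and Gdnf was not tested.

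**Figure D4:**
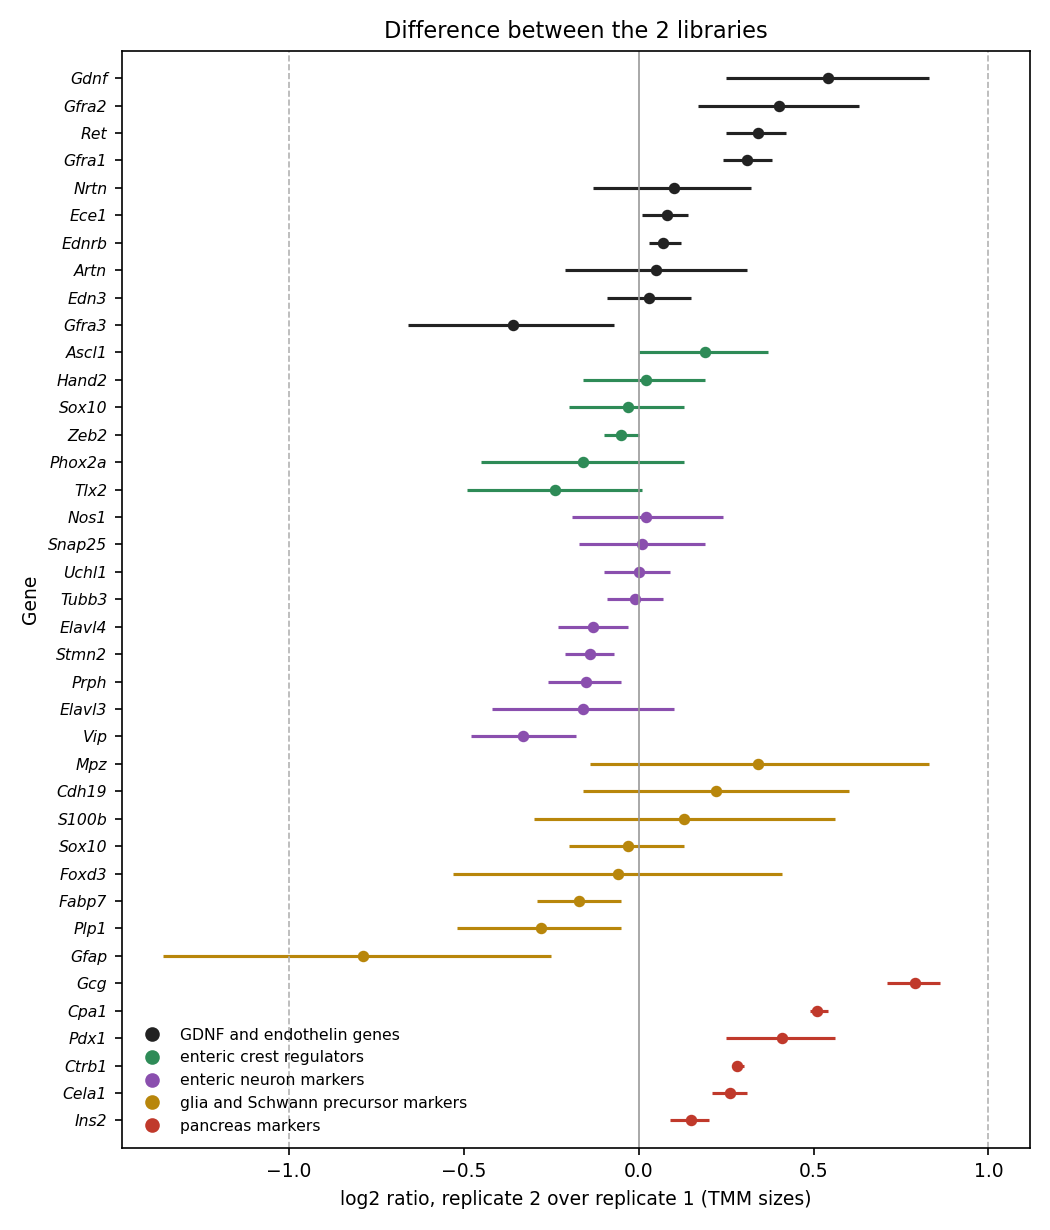
Log2 ratio of replicate 2 to replicate 1 with TMM library sizes (horizontal axis) for the 10 genes and for crest, neuron, glia and pancreas markers, with 95% intervals that cover counting error only and dashed lines at a 2-fold difference. The 10 genes lie between -0.36 (Gfra3) and 0.54 (Gdnf), and with spike-in library sizes all 10 would lie under 0.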

How the data were processed

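Total RNA above 200 nucleotides (10 ng input, ERCC spike-ins added) was sequenced from 2 pools of stomachs, per the labels. The deposited tables give, per the file headers, an expected count, TPM and FPKM for each gene and transcript of mm10 with annotation M4, and the authors' share of each transcript in its gene in percent. Which aligner, quantification program and strand setting were used is not given in the sources used here. Bounds printed as the authors' ranges are credibility bounds of TPM whose level is not stated.

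Genes were matched to GENCODE M21 by identifier without version: 42462 of 43346 (98.0%) matched. Expected counts were rounded for tests. Library sizes were TMM factors (edgeR 4.0.16, R 4.3.3) over the 20918 genes with a summed count of at least 10, and log2 ratios used a prior count of 0.5. Intervals of ratios are Clopper-Pearson at 95%. Tests were checked on simulated data. No molecular identifiers are recorded, so intervals cover counting error only. The labels call the samples biological replicates, and nothing beyond that says how the pools were separated.

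The 10 genes, the 18 lists beside them (128 genes in all) and the tests were chosen with earlier results of these data known. The named genes were all 10 members and, of each list, the 2 highest genes, those under 1 TPM in both libraries and those called different. Gfra4, Edn1, Edn2, Barx1 and Tcf21 are named outside this rule, with their values seen. Values are printed for those that bear on a member, and 2 list genes are left out and not reported here. Alternatives were other thresholds and units (FPKM, CPM, posterior means), each library left out, library sizes from totals, DESeq2 1.42.0 or spike-ins, other count minimums, edgeR's exact test and transcript sums. Restriction to complete coding transcripts was added after the data were seen. Sequences were read from the M21 transcripts, and none is shown for Gfra3 or for proteins.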

Additional observations from a re-analysis of the deposited data

How the results depend on the processing

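With each library left out there is no comparison between libraries, and only levels, ratios and shares were recomputed. No paired analysis was possible because there is a single group. Of 131 recomputed values, 9 changed sign, 8 ratios or shares moved by over 1 SD, 11 values or counts newly passed a threshold or rose by over 1.5 times, and 2 counts fell by over 1.5 times. The number of the 10 genes counted as detected was 9 at a threshold of 2 TPM and 7 at 5 TPM. Without the length correction (CPM) the mean log2 ratio was 0.64 in place of 1.57 for Gfra1 to Ret, 3.37 in place of 3.26 for Gfra1 to Gfra2, -0.72 in place of -2.60 for Gdnf to Nrtn and 3.11 in place of 2.56 for Ednrb to Edn3. With complete coding transcripts only, chosen after seeing the data, it was 1.32 for Gfra1 to Ret, 3.01 for Gfra1 to Gfra2 and 2.73 for Ednrb to Edn3. The short Ret form had 77.4% by counts and 73.9% by TPM.

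In place of 1353 genes called different between libraries, the count was 3436 with spike-in library sizes, 853 with a summed count of at least 50, 6588 by the adjusted p alone and 687 by edgeR's exact test. Of the 10 genes, 0 were called as reported, 6 by the adjusted p alone and 1 with spike-in sizes, Gfra3 at -1.04. With spike-in sizes the log2 ratios of the other 9 changed sign, to -0.34 for Ret, -0.14 for Gdnf, -0.58 for Nrtn, -0.63 for Artn, -0.37 for Gfra1, -0.28 for Gfra2, -0.65 for Edn3, -0.61 for Ednrb and -0.60 for Ece1. Which scaling is nearer to the RNA per pool was not tested. Depth limits Gdnf, Gfra3, Artn, Gfra2 and Nrtn most, with 163 to 373 counts in a library, and 2 pools limit every SD.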
